A study of Mus musculus with 85 samples.

Results

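Endothelial cells sorted from the brains of mouse embryos at E14.5 (mid-gestation) and labelled Kansl2 nKO were compared with endothelial cells labelled Cre control. The deposited table that pairs these genotypes fixed the comparison. It holds 3 Kansl2 nKO libraries, K2-188, K2-196 and K2-206, and 4 Cre libraries, Cre89, Cre91, Cre94 and Cre130, which are 7 of the 85 samples of the series and 7 of its 64 RNA libraries. The series deleted Mof (gene symbol Kat8), Kansl2 or Kansl3 with Nestin-Cre, and flow cytometry separated microglia, pericytes, endothelial cells and neural cells. RNA of the sorted endothelial cells was amplified with the SMART-Seq v4 kit and made into Nextera XT libraries. Nestin-Cre is used to delete genes in the neural lineage, and the labels do not say whether the sorted endothelial cells themselves lost Kansl2. The labels give neither the number of embryos behind a library nor whether the libraries came from separate animals, so p-values measure the spread between these libraries, which may be technical.

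KANSL2 is a subunit of the NSL complex, in which the acetyltransferase MOF (KAT8) acetylates histone H4 at the promoters of many widely expressed genes. Endothelial cells line the vessels that grow into the embryonic brain. They form the blood-brain barrier through tight junctions and through transporters for sugars, amino acids, lipids and hormones, and pericytes ensheath them. Endothelial cells also answer inflammatory signals: the factors IRF1 and NF-kB raise genes for antigen presentation, antiviral defence and leukocyte adhesion.

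The libraries held between 10337381 and 12851220 reads in genes in the Kansl2 nKO group and between 10048082 and 25260285 in the Cre group. At least 1 read was found for 20409, 19082 and 19291 genes in K2-188, K2-196 and K2-206, against 18770, 16985, 18548 and 16722 in Cre89, Cre91, Cre94 and Cre130, and the groups did not overlap. Cre130 stood apart: 7.69% of its reads were mitochondrial, against 1.11% to 2.35% in the other 6 libraries, and its correlation of log2 counts per 1000000 gene reads (CPM) across genes with the other Cre libraries was 0.730 to 0.783, against 0.879 to 0.914 among those 3. Among the Kansl2 nKO libraries, K2-196 correlated at 0.855 with K2-188 and 0.862 with K2-206, against 0.920 between those. Its cytosolic ribosomal protein genes summed to 18456 CPM, against 6798 to 12731 in the other 6 libraries. No library duplicated another. Levels are given as normalized values, the read counts divided by one size factor per library. A log2 difference is the mean of log2(value + 1) over the Kansl2 nKO libraries minus that over the Cre libraries, with limma's standard error (SE). The added 1 can make it understate the change of genes with low values. Where low values are uneven within a group, it can also exceed a fold change fitted to counts. For Bcl3 it was 5.47, against a log2 fold change of 4.36 in the authors' deposited table.

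Kansl2 itself had normalized values of 645, 456 and 795 in K2-188, K2-196 and K2-206, against 702, 558, 843 and 618 in Cre89, Cre91, Cre94 and Cre130. The groups overlapped, with a log2 difference of -0.12 ± 0.33 (SE, n = 3 against 4; limma, adjusted p = 0.976) and a 95% interval of -0.85 to 0.60. A total over all exons checks little of a deletion, which can leave part of the transcript in place. In the neural cells the log2 difference of Kansl2 was 0.09 ± 0.09 (limma, adjusted p = 0.491). Kat8, the acetyltransferase of the complex, had values of 505, 391.6 and 402 in the Kansl2 nKO libraries, against 410, 334.9, 268 and 594 in the Cre libraries, and a log2 difference of 0.16 ± 0.40. Kansl3, a neighbouring subunit, had a log2 difference of -0.02 ± 0.46. The sign of all 3 differences turned with the setting, Kansl2 to 0.09 without K2-196, Kat8 to -0.01 without Cre94 and Kansl3 to 0.24 without Cre130. Of the 9 NSL subunits, 0 had an unadjusted p under 0.05, and their median log2 difference was 0.01, beside 0.06 over all genes tested.

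The libraries carried the RNA of endothelial cells, and summed pericyte and fibroblast markers were lower in each Kansl2 nKO library than in any Cre library. The 14 endothelial markers, among them the junction protein gene Cdh5 and the receptor genes Kdr and Tek, summed to 13162, 10865 and 12441 CPM in the Kansl2 nKO libraries, against 13473, 13153, 12407 and 9689 in the Cre libraries. The groups overlapped (exact permutation test over libraries, two-sided, p = 0.914). Cre pericyte libraries held 631 to 856 CPM of the same markers and Cre neural libraries 5.55 to 5.93. The 10 pericyte markers, such as Rgs5, Kcnj8, Cspg4 and the matrix protein gene Vtn, summed to 195, 56.1 and 89.8 CPM in the Kansl2 nKO libraries, against 385, 344.6, 426 and 408 in the Cre libraries. Every Kansl2 nKO library lay below every Cre library. The exact permutation p was 0.0571, the smallest that 3 against 4 libraries can give, and 0.171 after Benjamini-Hochberg adjustment over 9 measures. Cre pericyte libraries, made with the same kit, held at least 10488 CPM of these markers, far above both endothelial groups.

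The 15 neural progenitor and neuron markers summed to 433, 610 and 265 CPM in the Kansl2 nKO libraries, against 498, 631, 618 and 628 in the Cre libraries. The groups overlapped (exact permutation test, two-sided, p = 0.114, adjusted p = 0.257 over the 9 measures). The list includes Nes, which young endothelial cells also express, and Nes made up most of the sum in each Kansl2 nKO library. Without Nes, a step taken after the values were seen, the other 14 markers summed to 123, 66.7 and 91.3 CPM in the Kansl2 nKO libraries, against 250, 405, 411 and 265 in the Cre libraries, and the groups did not overlap; this sum was not tested. Cre neural libraries, made with another kit, held 4118 to 4660 CPM of these 14. Fibroblast markers summed to 73.0 to 112 CPM in the Kansl2 nKO libraries, against 126 to 180 in the Cre libraries, without overlap (exact permutation p = 0.0571, the smallest possible, adjusted p = 0.171). Microglia and macrophage markers summed to 15.1 to 28.9 CPM, against 25.7 to 38.3, and erythroid markers to 231 to 621.8, against 339.03 to 848, with overlap in both. In sorted bulk samples, fewer cells of a type and less RNA per cell cannot be told apart. The part of these RNAs in the gene differences below was not tested.

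**Figure D1:**
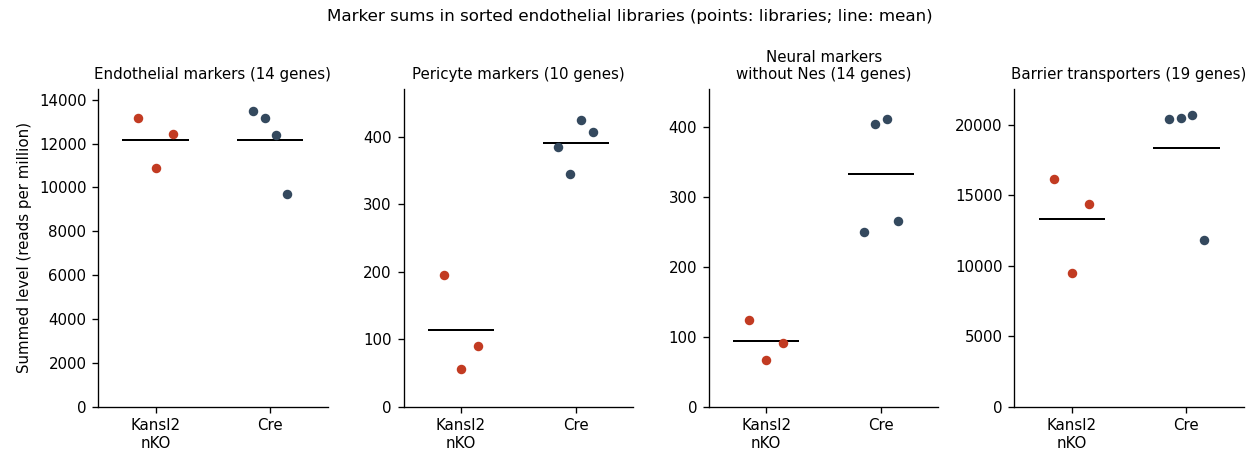
Summed levels of cell type markers and barrier transporters in CPM (linear axes from 0) in the Kansl2 nKO and Cre endothelial libraries; points are libraries and lines are means. The endothelial sum overlaps between the groups, while every Kansl2 nKO library lies below every Cre library in the pericyte sum (56.1 to 195, against 344.6 to 426) and in the neural sum without Nes (66.7 to 123, against 250 to 411).

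Across all genes with a mean normalized value of at least 10, 0 of 16649 (0.0%) passed an adjusted p of 0.05 with limma, and the smallest adjusted p was 0.384. At an unadjusted p under 0.05, 506 genes (3.04%) were higher and 469 (2.82%) lower in the Kansl2 nKO libraries. Without Cre130 these counts were 868 (5.27%) and 661 (4.01%), without K2-196 330 (2.004%) and 393 (2.39%), and without K2-206 1.45% of the genes were higher and 2.08% lower. Without 1 library, the share higher ranged from 1.45% to 5.27% and the share lower from 2.08% to 4.01%. The groups did not overlap for 650 genes (3.9%) that were higher and 549 genes (3.3%) that were lower. The same reads gave 0 calls with edgeR's quasi-likelihood test (660 genes at an unadjusted p under 0.05) and 159 with DESeq2, 69 higher and 90 lower. limma with a weight for each library, which gave Cre130 a weight of 0.259 and K2-196 one of 0.430, made 54 calls. The authors' deposited table called 69 genes higher (0.382%) and 90 lower (0.498%) of 18062 with an adjusted p, the same 159 genes as DESeq2 here. Of these, 137 had groups that did not overlap, 21 had 0 reads in every Cre library and 12 had 0 reads in every Kansl2 nKO library. The genes below were taken by a rule of unadjusted p, expression and non-overlap, and their values describe these 7 libraries.

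Among the 12 higher genes the smallest p belonged to Irf1, the transcription factor that drives antigen presentation and interferon-response genes. Irf1 had normalized values of 702, 467 and 679 in K2-188, K2-196 and K2-206, against 84.1, 82.0, 83.3 and 92.9 in Cre89, Cre91, Cre94 and Cre130. The 4 Cre libraries were nearly equal and the mean of the Kansl2 nKO libraries was 7.197 times theirs. The log2 difference was 2.81 ± 0.48 (limma, adjusted p = 0.384), and it was at least 2.71 when each library was left out in turn. The authors' deposited table gave Irf1 a log2 fold change of 2.85 with an adjusted p of 1.93e-15.

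The promoters of 5 genes of the inflammatory groups are shown because IRF1, the interferon-activated STAT factors and NF-kB act through short sites near gene starts. The genes were chosen after their values were seen. Each sequence is the 250 bases before the gene's start, from RefSeq on GRCm38.p6, written 5′ to 3′ on the gene's strand. Irf1 lies on the plus strand at chr11:53769764-53770013, Ifit1 at chr19:34640639-34640888, B2m at chr2:122147437-122147686 and Icam1 at chr9:21015690-21015939, all on the plus strand, and Ifitm3 on the minus strand at chr7:141010745-141010994. Capitals mark matches to GAAANNGAAA (the interferon-stimulated response element), TTCNNNGAA (the gamma-activated site) or GGGANTTTCC (an NF-kB site), searched on both strands.
Irf1: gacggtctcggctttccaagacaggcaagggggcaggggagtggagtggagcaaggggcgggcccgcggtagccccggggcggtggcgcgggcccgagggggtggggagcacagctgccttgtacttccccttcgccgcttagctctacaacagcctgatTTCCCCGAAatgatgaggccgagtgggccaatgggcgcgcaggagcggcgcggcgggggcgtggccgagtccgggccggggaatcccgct
Ifit1: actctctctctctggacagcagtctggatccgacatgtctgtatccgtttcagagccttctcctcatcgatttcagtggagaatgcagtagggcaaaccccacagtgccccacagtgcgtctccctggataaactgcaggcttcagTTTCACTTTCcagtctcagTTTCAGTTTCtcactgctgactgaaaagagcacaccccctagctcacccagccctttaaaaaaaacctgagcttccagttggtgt
B2m: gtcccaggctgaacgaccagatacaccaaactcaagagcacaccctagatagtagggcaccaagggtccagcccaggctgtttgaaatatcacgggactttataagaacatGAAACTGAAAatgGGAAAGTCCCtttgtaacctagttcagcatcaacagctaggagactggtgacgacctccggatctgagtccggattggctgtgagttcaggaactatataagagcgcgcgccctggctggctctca
Icam1: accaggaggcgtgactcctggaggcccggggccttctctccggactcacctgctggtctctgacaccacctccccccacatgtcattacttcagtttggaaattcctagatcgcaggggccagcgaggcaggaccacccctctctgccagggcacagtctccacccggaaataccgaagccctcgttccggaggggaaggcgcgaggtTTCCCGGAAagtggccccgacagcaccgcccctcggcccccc
Ifitm3: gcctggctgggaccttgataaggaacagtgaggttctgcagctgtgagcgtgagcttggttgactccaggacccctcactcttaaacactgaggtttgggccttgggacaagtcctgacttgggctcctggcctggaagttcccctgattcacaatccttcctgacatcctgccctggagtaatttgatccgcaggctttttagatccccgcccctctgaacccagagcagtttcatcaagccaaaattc
Irf1 held a gamma-activated site 90 to 82 bases before the start. A second listed start of Irf1 held 0 matches. Ifit1 held response elements 104 to 95 and 85 to 76 bases before its start, both on the minus strand. In B2m a response element 139 to 130 bases before the start stood beside an NF-kB site that began 126 bases before it, and Icam1 held a gamma-activated site 42 to 34 bases before its start. Ifitm3 held 0 matches. Of 32851 promoters of this length, 2.98% held the response element, 7.02% the gamma-activated site and 0.356% the NF-kB site. In the interferon response list, 10 of 19 genes with a promoter sequence held the response element. That list was drawn up from known interferon-response genes, so its share says nothing about these libraries. The element was held by 2 of 10 genes of MHC class I presentation and 1 of 15 of leukocyte adhesion and NF-kB signalling. It was held by 0 of 15 barrier transporters and 0 of 20 immediate early and heat shock genes. A match is a run of letters and does not show binding. Only these exact patterns were searched, so sites of other forms, NF-kB sites among them, stayed unmarked.

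Bcl3, a nuclear partner of the NF-kB subunits, had values of 374, 490 and 692 in the Kansl2 nKO libraries, against 74.0, 12.7, 0 and 15.03 in the Cre libraries. Its log2 difference was 5.47 ± 1.29 (limma, adjusted p = 0.660). Lck, a Src-family kinase known from T cells, had 294, 286 and 287, against 28.03, 15.6, 10.9 and 36.9, a log2 difference of 3.75 ± 0.81. Fosl2, an AP-1 subunit, had 850, 614 and 956, against 308, 40.0, 44.0 and 242. The rule took only genes whose groups do not overlap, so the lack of overlap in these 3 genes adds nothing. For Bcl3 and Fosl2, the Cre libraries spread far more than the Kansl2 nKO libraries on the log scale.

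Among more abundant genes, Tgfbi, a secreted matrix protein induced by TGF-beta, had 4163, 4960 and 4798 in the Kansl2 nKO libraries, against 1460, 1866, 1959 and 2058 in the Cre libraries, a log2 difference of 1.35 ± 0.23 (limma, adjusted p = 0.384). Rock2, a kinase that acts on the actin cytoskeleton and on endothelial junctions, had 2879, 3222 and 2758, against 1056, 897, 1250 and 1305, a log2 difference of 1.40 ± 0.25. Igfbp3, a binding protein for insulin-like growth factors, had 9651, 4846 and 9162, against 3149, 3038, 3621 and 2663. The remaining higher genes were Dusp2 (a phosphatase for MAP kinases), Ifitm3 (an antiviral membrane protein), Litaf, Errfi1 (a feedback inhibitor of the EGF receptor) and Sbno2, with log2 differences between 1.08 and 1.66. Of these 12 genes, 5 had a higher CPM in Cre pericytes or Cre neural cells than in Cre endothelial cells, and over all genes tested the share was 58.6%. Of the 69 genes that the authors' deposited table called higher, 57 (82.6%) had a higher CPM in those cells, and of the 90 it called lower, 73 (81.1%). The same Cre endothelial values entered these calls. Low ones favour a call of higher, and 21 called genes had 0 reads in every Cre library. The share of 82.6%, like that of the 12 genes, is thus partly fixed by the selection, and the source of this RNA was not tested.

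**Figure D2:**
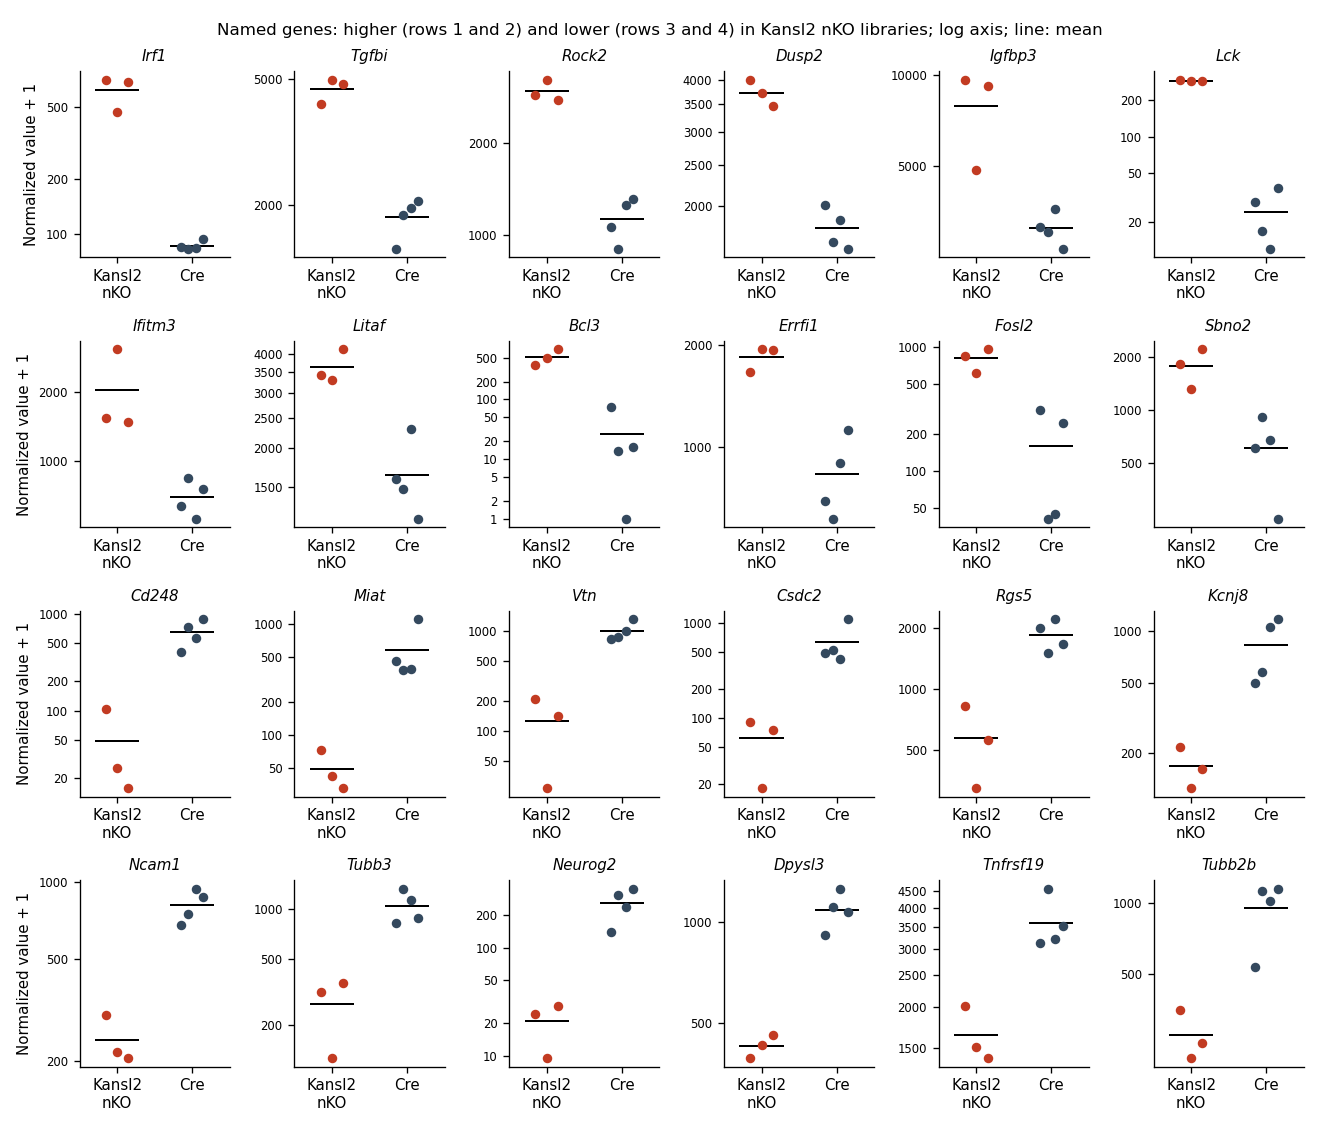
Normalized value + 1 (log axes) of the 24 genes taken by the rule, in the Kansl2 nKO and Cre endothelial libraries; points are libraries and lines are means. Irf1 lies between 467 and 702 in the Kansl2 nKO libraries, against 82.0 to 92.9 in the Cre libraries, and Cd248 between 14.6 and 102, against 400 to 885.

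The 12 lower genes were mostly genes of pericytes and neurons. Cd248, a surface protein of pericytes and fibroblasts, had 102, 24.5 and 14.6 in K2-188, K2-196 and K2-206, against 400, 724, 560 and 885 in Cre89, Cre91, Cre94 and Cre130. Its log2 difference was -4.16 ± 0.69 (limma, adjusted p = 0.384). Vtn had 211, 25.7 and 139, against 827, 869, 996 and 1323, and Rgs5, a regulator of G protein signalling, had 824, 321 and 556, against 1986, 1506, 2204 and 1668. The potassium channel subunit gene Kcnj8 had 217, 125 and 161, against 501, 578, 1051 and 1165. Within the Kansl2 nKO group, K2-196 was lowest for Vtn, Rgs5 and Kcnj8. Csdc2, which encodes an RNA-binding protein, had 90.8, 17.1 and 74.0, against 482, 515, 420 and 1104. In Cre pericytes the other 4 genes had mean CPM of 454 (Cd248), 1453 (Vtn), 6498 (Rgs5) and 1250 (Kcnj8), against 51.1, 80.1, 149.1 and 65.6 in Cre endothelial cells.

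The neural genes were lower by similar amounts. Tubb3, a tubulin of neurons, had 318, 126 and 357 in the Kansl2 nKO libraries, against 824, 1324, 1126 and 879 in the Cre libraries, a log2 difference of -2.06 ± 0.42. Neurog2, a factor that commits progenitors to neurons, had 23.6, 8.57 and 28.2, against 139, 307, 238 and 350. The long noncoding RNA Miat, abundant in neurons, had 71.7, 41.6 and 32.1, against 461, 382, 395 and 1103, a log2 difference of -3.49 ± 0.58. Ncam1, Dpysl3 and Tubb2b, which serve adhesion, axon growth and the neuronal cytoskeleton, had log2 differences of -1.76, -1.35 and -1.76. Tnfrsf19, a Wnt-induced receptor, was the 1 gene of the 12 with a higher CPM in Cre endothelial cells (291) than in Cre pericytes (143) and Cre neural cells (80.8). It had 2008, 1508 and 1394 in the Kansl2 nKO libraries, against 3129, 4580, 3220 and 3518 in the Cre libraries.

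Read by lists, 5 of 10 pericyte markers were lower in the Kansl2 nKO libraries at an unadjusted p under 0.05. Over all genes tested, 2.82% were lower and 3.04% higher at that level. All 10 pericyte differences were negative, beside 7614 of all 16649 genes tested, and the median log2 difference was -2.01. Cspg4, the NG2 proteoglycan, was among the 5 with -2.65 ± 0.83. Of the 15 neural markers, 9 were lower at that level and the median was -2.70, with Hes5, a Notch effector of progenitors, at -4.88 ± 1.16 and Fabp7, a lipid-binding protein of radial glia, at -2.62 ± 0.65. The count of neural markers was 5 without K2-206, 6 without Cre89, Cre91 or Cre94, 10 without Cre130 and 11 without K2-188. Col3a1, a fibroblast collagen, was at -1.62 ± 0.63. Of 14 endothelial markers, 1 was higher at that level, the junction cadherin gene Cdh5, which had 5400, 6928 and 4740 in the Kansl2 nKO libraries, against 4675, 2413, 2772 and 4360 in the Cre libraries. The other 13 included Egfl7 at -0.31 ± 0.22, Eng at -0.35 ± 0.26 and Emcn at 0.40 ± 0.24, and the list's median was -0.05.

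Of the 18 transporters of the blood-brain barrier tested, 15 had a negative log2 difference, beside 7614 of all 16649 genes tested. At an unadjusted p under 0.05, 5 were lower in the Kansl2 nKO libraries, beside 2.82% of all genes tested. The list's median was -0.51 and 0 transporters passed the adjusted threshold. Mfsd2a, the carrier of omega-3 lysolipids that also limits vesicle transport across the endothelium, had 6844, 4604 and 5445 in K2-188, K2-196 and K2-206, against 10743, 13690, 13978 and 7651 in Cre89, Cre91, Cre94 and Cre130. Every Kansl2 nKO library lay below every Cre library, and the log2 difference was -1.01 ± 0.26 (limma, adjusted p = 0.707). Slc38a3, a glutamine transporter, had 8009, 3806 and 7074, against 10228, 10893, 10530 and 12987, a log2 difference of -0.89 ± 0.27. Lrp8, a lipoprotein and reelin receptor, had 12143, 9833 and 12203, against 16232, 17137, 18014 and 17463, a log2 difference of -0.60 ± 0.19. Slc22a8, an organic anion transporter, had 2140, 748 and 1736, against 3718, 3579, 3674 and 1935, and here Cre130 overlapped the Kansl2 nKO group. Slc7a1, a carrier of cationic amino acids, was the fifth with -0.48 ± 0.20.

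The glucose carrier gene Slc2a1 was at -0.54 ± 0.30 and the large neutral amino acid carrier gene Slc7a5 at -0.59 ± 0.31, both with overlap. The highest of the 3 differences above 0 was 0.20 ± 0.30, for the taurine carrier gene Slc6a6. Cre130 was the lowest Cre library for 14 of the 18. Without it, 13 transporters were lower at an unadjusted p under 0.05, beside 4.01% of all genes tested, and the median was -0.58. Without any other single library the count was 4 to 6, and without K2-196 the median was -0.30. In the 4 transporters named with values in every library, Cre endothelial cells had 264 to 1387 CPM, against 11.5 to 64.1 in Cre pericytes. Summed over the 19 listed transporters, the level was 16157, 9470 and 14394 CPM in the Kansl2 nKO libraries, against 20402, 20494, 20699 and 11836 in the Cre libraries.

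**Figure D3:**
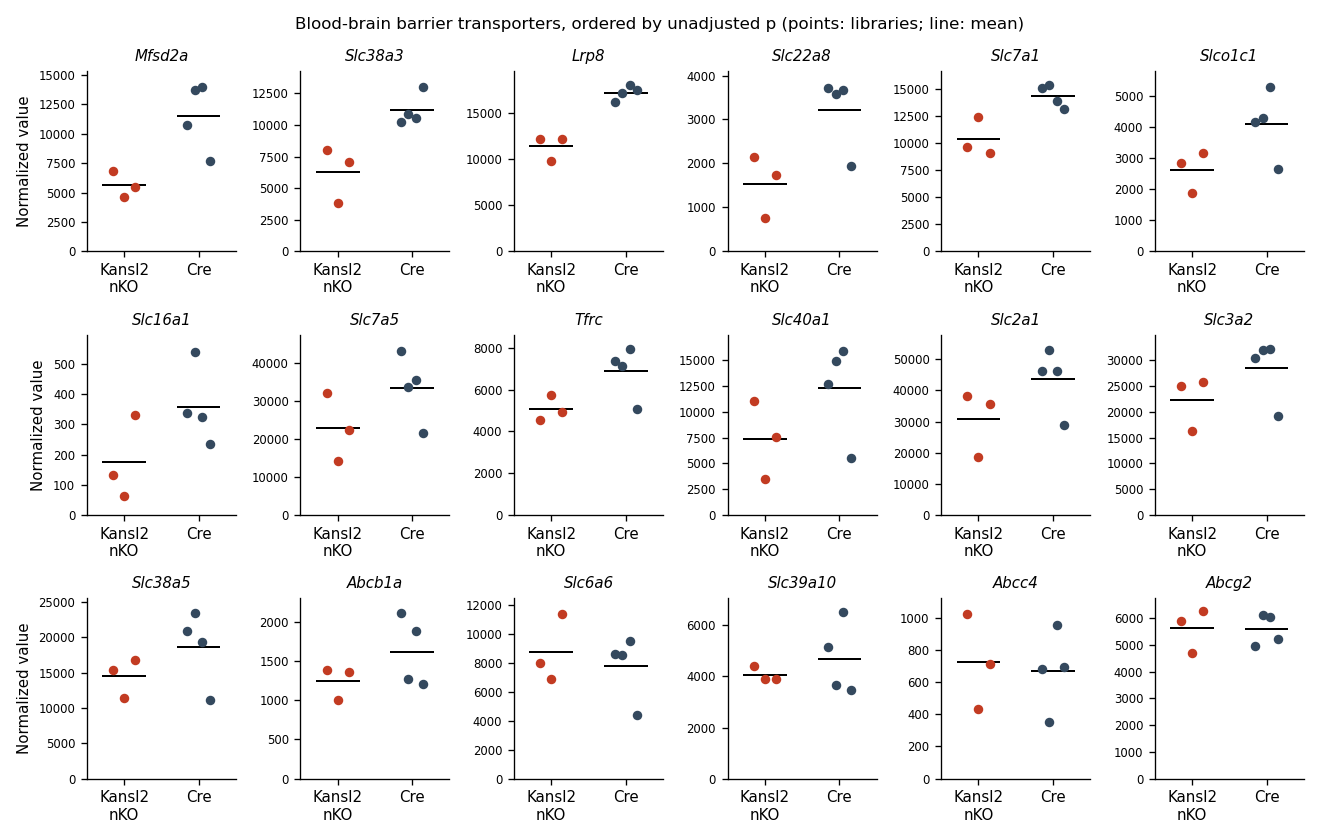
Normalized values (linear axes from 0) of the 18 blood-brain barrier transporters tested, in order of unadjusted p, in the Kansl2 nKO and Cre endothelial libraries; points are libraries and lines are means. The means of 15 transporters are lower in the Kansl2 nKO group on the log2 scale, as for Mfsd2a (4604 to 6844, against 7651 to 13978), and Cre130 is the low Cre point in many panels.

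Of 19 genes of leukocyte adhesion and NF-kB signalling, 3 were higher at an unadjusted p under 0.05, beside 3.04% of all genes tested. None was lower at that level, and the median log2 difference was 0.75. Icam1, the adhesion molecule that leukocytes grip on inflamed endothelium, had 4680, 3287 and 6133 in the Kansl2 nKO libraries, against 2073, 2956, 1923 and 2047 in the Cre libraries. The groups did not overlap and the log2 difference was 1.04 ± 0.27 (limma, adjusted p = 0.707). Relb, an NF-kB subunit, had 710, 573 and 525, against 127, 229, 345.2 and 430, a log2 difference of 1.22 ± 0.47. Cxcl2, a chemokine that attracts neutrophils, had 65.4, 266 and 84.7, against 47.1, 25.4, 12.8 and 0. The count of 3 was 7 without Cre130, beside 5.27% of all genes tested. It was 4 without Cre89 or Cre91 and 2 without Cre94, K2-188 or K2-206. Without K2-206, 1 member was lower.

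The interferon response list was divided, with 4 of 20 tested members higher at an unadjusted p under 0.05 and 0 lower. Over all genes tested, 3.04% were higher and 2.82% lower at that level. Of the 20 differences, 11 were above 0, beside 9035 of all 16649 genes tested, and the median was 0.10. Ifit1, an antiviral RNA-binding protein, had 70, 52 and 102 reads in the Kansl2 nKO libraries and 0 reads in each Cre library, at least 122-fold higher as a share of all reads, against a floor of 3 reads over the 4 Cre libraries. Of all 16649 genes tested, 231 had 0 reads in every library of 1 group and more than 3 reads in the other. Each Kansl2 nKO library also had reads for more genes than any Cre library. Ifitm3 had 1544, 3077 and 1485, against 632, 841, 557 and 749, a log2 difference of 1.48 ± 0.33. Oas1a, a sensor of double-stranded RNA, had 12.7, 47.7 and 65.2, against 7.85, 0, 2.37 and 0, and Rsad2, which encodes viperin, had 126, 26.9 and 68.1, against 58.3, 0, 0 and 0. Gbp3, an interferon-induced GTPase, was at -1.01 on the log2 scale, and the factor Irf7 at -0.45. The count of 4 was 5 without Cre91 or Cre130, 3 without K2-196 and 2 without K2-206. Leaving out any 1 library raised the median, to 0.46 without Cre89, 0.31 without Cre91, 0.23 without Cre94, 0.36 without Cre130, 0.28 without K2-188, 0.48 without K2-196 and 0.53 without K2-206. The count of lower members was 2 without Cre91 and 1 without K2-206.

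Genes of MHC class I presentation had 11 of 12 differences above 0, beside 9035 of all 16649 genes tested, and a median of 0.85. At an unadjusted p under 0.05, 2 members were higher, beside 3.04% of all genes tested. H2-K1, a class I heavy chain, had 290, 627 and 395 in the Kansl2 nKO libraries, against 71.7, 147, 165 and 6.83 in the Cre libraries, and B2m, the light chain, had 3671, 5325 and 3874, against 3389, 3288, 2325 and 2435. Neither gene's groups overlapped, and the log2 differences were 2.77 ± 0.98 and 0.59 ± 0.25. The count of 2 was 0 without K2-196, 1 without Cre130 or K2-206 and 3 without K2-188. The median was 1.31 without Cre89, and H2-K1 was at 1.78 without Cre130. Members of the H2, Ifitm, Oas and tubulin families have close copies that can share reads, and how the counting treated such reads is not given in the sources used here.

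Immediate early genes, which respond within minutes to growth factors and also to the handling of cells, formed 1 list with heat shock genes. It had 6 of 22 members higher and 1 lower at an unadjusted p under 0.05, with a median of 0.35. At that level, 3.04% of all genes tested were higher and 2.82% lower. Ier3 had 1674, 2191 and 2430 in the Kansl2 nKO libraries, against 701, 1304, 1152 and 991 in the Cre libraries, a log2 difference of 1.04 ± 0.29. Klf6, a zinc finger factor, was at 0.76 ± 0.25 and Junb, an AP-1 subunit, at 0.73 ± 0.26, while its relative Jund was the lower one at -0.66 ± 0.25. The heat shock genes Hspa1a and Hspa1b were at -0.95 and -0.58. The count of 6 was 2 without Cre89, K2-188 or K2-206, and 9 without Cre130, beside 5.27% of all genes tested.

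Genes of vessel growth and patterning held few members at that level. At an unadjusted p under 0.05, 3.04% of all genes tested were higher and 2.82% lower. In the list of VEGF and tip cell genes, 2 of 20 were lower at that level. One was Apln, a peptide secreted by tip cells, with 2361, 952 and 987 in the Kansl2 nKO libraries, against 2866, 2410, 3622 and 1933. The other was Adm, the vasodilator adrenomedullin, with 880, 674 and 1189, against 2261, 2725, 3170 and 1181, a log2 difference of -1.30 ± 0.36. The count of 2 was 3 without K2-188 and 1 without K2-206. In the Notch and arteriovenous list, Efnb2, the ephrin of arteries, was at 0.78 ± 0.26 and Heyl, a Notch effector with a higher CPM in Cre pericytes (401) than in Cre endothelial cells (47.9), at -1.73 ± 0.54. Lists of Wnt reception, junctions and caveolae, basement membrane, and angiopoietin and TGF-beta signalling had medians between -0.06 and 0.11 and at most 1 member in each direction at that level. Without 1 library, their medians lay between -0.15 and 0.25, with at most 3 members in each direction.

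The lists of p53 targets, integrated stress response, hypoxia, glycolysis and respiratory chain had medians between -0.23 and 0.30, beside 0.06 over all genes tested. At an unadjusted p under 0.05, 3.04% of all genes tested were higher and 2.82% lower. Several lists turned on 1 library. The integrated stress response median was -0.22 without Cre130 and 0.47 without Cre94, and that of the hypoxia list was -0.29 without Cre130 and 0.15 without Cre94. Of 23 p53 targets, 2 were higher at an unadjusted p under 0.05 (3 without K2-196, 1 without Cre89, Cre91 or K2-188, and 0 without K2-206). Of 19 members of the integrated stress response, 2 were higher (3 without Cre130, 1 without K2-206) and 1 lower (2 without Cre130, 0 without Cre94, K2-196 or K2-206). Gdf15, a secreted stress factor, had 11, 35 and 53 reads in the Kansl2 nKO libraries and 0 in each Cre library, at least 53.9-fold higher as a share of all reads, against the floor of 3. Nupr1, a small stress-induced nuclear protein, had 47, 51 and 132 reads against 0 in each Cre library, at least 125-fold higher. A group at 0 reads in every library, with more than 3 reads in the other, occurred in 231 of all 16649 genes tested. In the hypoxia list 1 of 19 was higher (2 without Cre94 or K2-188, 0 without K2-206). In that list 3 were lower (4 without Cre130, 2 without Cre89, K2-188 or K2-196, and 1 without Cre91, Cre94 or K2-206). Glycolysis genes had 15 of 18 differences below 0, beside 7614 of all 16649 genes tested, and a median of -0.23. Among them, Eno1 was at -0.85 ± 0.24 and Pkm at -0.52 ± 0.23. The 40 respiratory chain genes had a median of 0.01 and 0 members at that level, but without K2-196 the median was -0.28 and 5 were lower. Transcripts of the mitochondrial genome had a median of -0.46, which was 0.32 without Cre130.

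**Figure D4:**
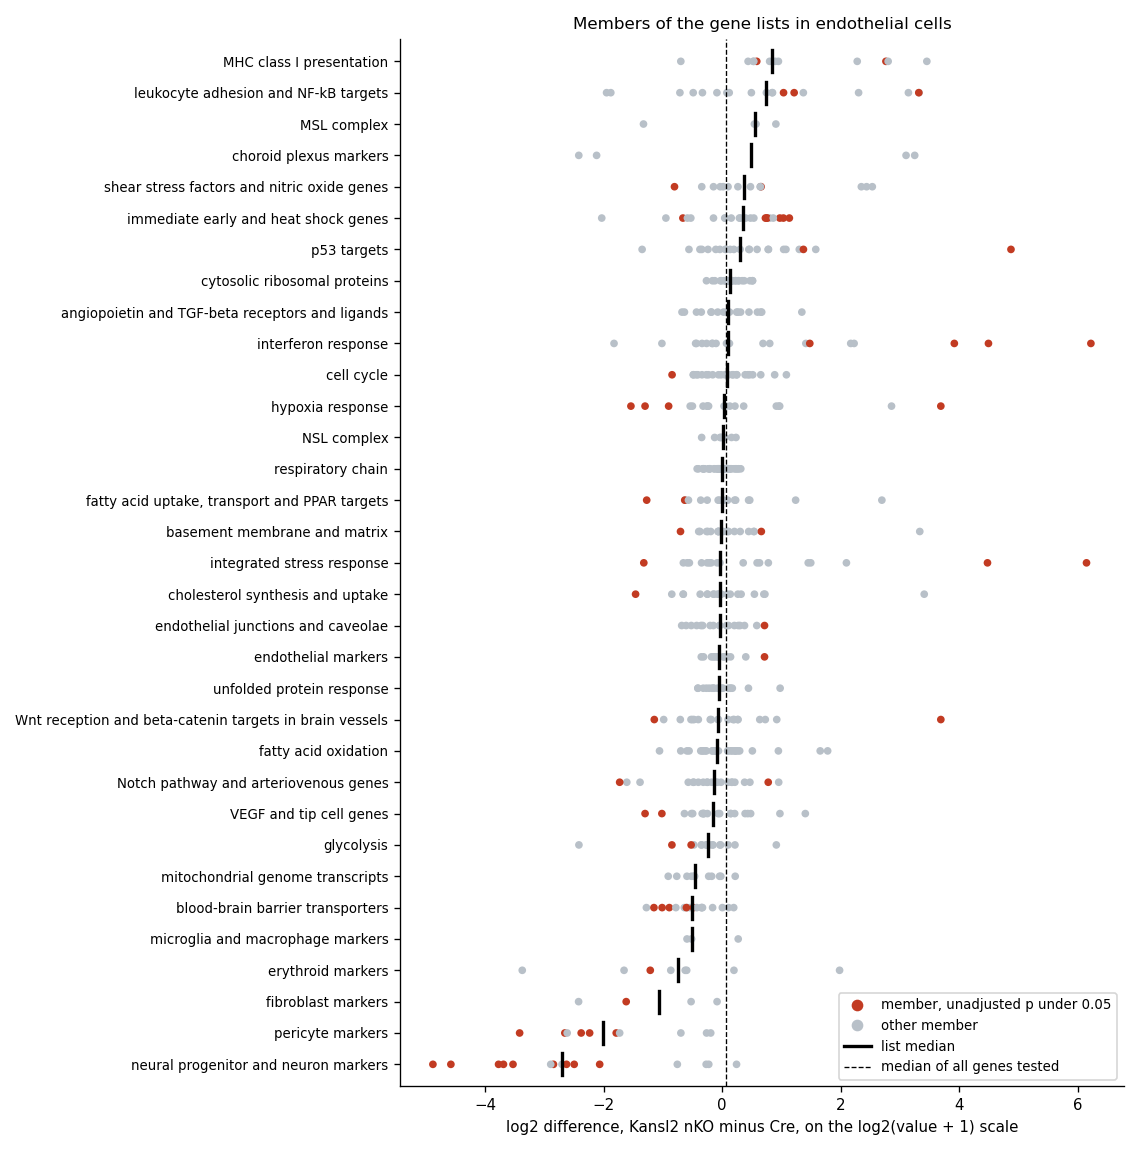
Log2 difference of Kansl2 nKO minus Cre endothelial cells, on the log2(value + 1) scale, for each tested member of the gene lists; red points have an unadjusted p under 0.05, black bars are list medians and the dashed line is the median of all genes tested (0.06). Pericyte and neural markers lie lowest (medians -2.01 and -2.70), and MHC class I and NF-kB genes are among the highest (0.85 and 0.75).

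Sorted neural cells, in which Nestin-Cre acts, were profiled with other Kansl2 nKO and Cre libraries, 3 of each, made with the TruSeq kit. In them 2796 genes rose and 3068 fell of 13903 (limma, adjusted p under 0.05). Endothelial and neural differences were then set against each other in 1 fit of 12324 genes, which tests the endothelial difference minus the neural one. It called 2 genes with a higher endothelial difference (0.0162%), namely H19 and Adcy1 (which had 0 reads in every Cre endothelial library), and 40 with a lower one (0.325%). The 42 calls were 17 to 137 when each endothelial library was left out, with 137 without Cre130, 72 without K2-188, 22 without K2-196, 18 without K2-206, and 17 without Cre91 or Cre94. Of the 40, 34 (85.0%) had a higher CPM in Cre neural than in Cre endothelial cells, against 5788 of the 12324 genes fitted (47.0%). The fit takes 1 variance per gene from both cell types, with mean weights of 0.229 for endothelial and 5.58 for neural libraries. Its SE can therefore be smaller than that of the endothelial difference alone, as for Miat (0.42, against 0.58). None of the 42 genes passed in endothelial cells alone.

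H19, an imprinted noncoding RNA of growing embryonic tissue, averaged 5102 ± 2750 in Kansl2 nKO and 2056 ± 808 in Cre endothelial cells (SD, n = 3 and 4), and 137 ± 7.96 in Kansl2 nKO and 285 ± 18.9 in Cre neural cells (SD, n = 3 each). The difference of the differences was 2.30 ± 0.44 on the log2 scale (limma, adjusted p = 0.0303). Among the lower calls, 4 were amino acid carriers that rose in neural cells. Slc7a5 had a log2 difference of -0.59 ± 0.31 in endothelial cells and rose by 1.54 ± 0.10 in neural cells, and the test of the difference gave -2.12 ± 0.41 (limma, adjusted p = 0.0303). For Slc7a1, Slc1a5 and Slc1a4 the endothelial differences were -0.48, -1.34 and -0.53 and the neural ones 1.09, 0.94 and 1.05. Mfsd2a was at -1.01 ± 0.26 in endothelial cells and rose by 0.45 ± 0.10 in neural cells (difference -1.46 ± 0.31; limma, adjusted p = 0.0496).

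Miat, Tubb3 and Ncam1, which were low in the Kansl2 nKO endothelial libraries, had no negative difference in neural cells, where only Ncam1 passed. Miat had a log2 difference of 0.01 ± 0.08 in neural cells (limma, adjusted p = 0.916). Tubb3 had one of 0.15 ± 0.07 (adjusted p = 0.0872) and Ncam1 one of 0.27 ± 0.07 (adjusted p = 0.00529). The test of endothelial minus neural differences gave -3.50 ± 0.42 for Miat (limma, adjusted p = 0.00104) and -2.22 ± 0.34 for Tubb3 (adjusted p = 0.00964). For Ncam1 it gave -2.04 ± 0.30 (adjusted p = 0.00634). In endothelial cells alone, the adjusted p-values of Miat, Tubb3 and Ncam1 were 0.384, 0.542 and 0.513 (limma). Irf1 rose in neural cells by 0.87 ± 0.23 (limma, adjusted p = 0.00690), and its difference between the cell types, 1.94 ± 0.81, did not pass (adjusted p = 0.455).

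**Figure D5:**
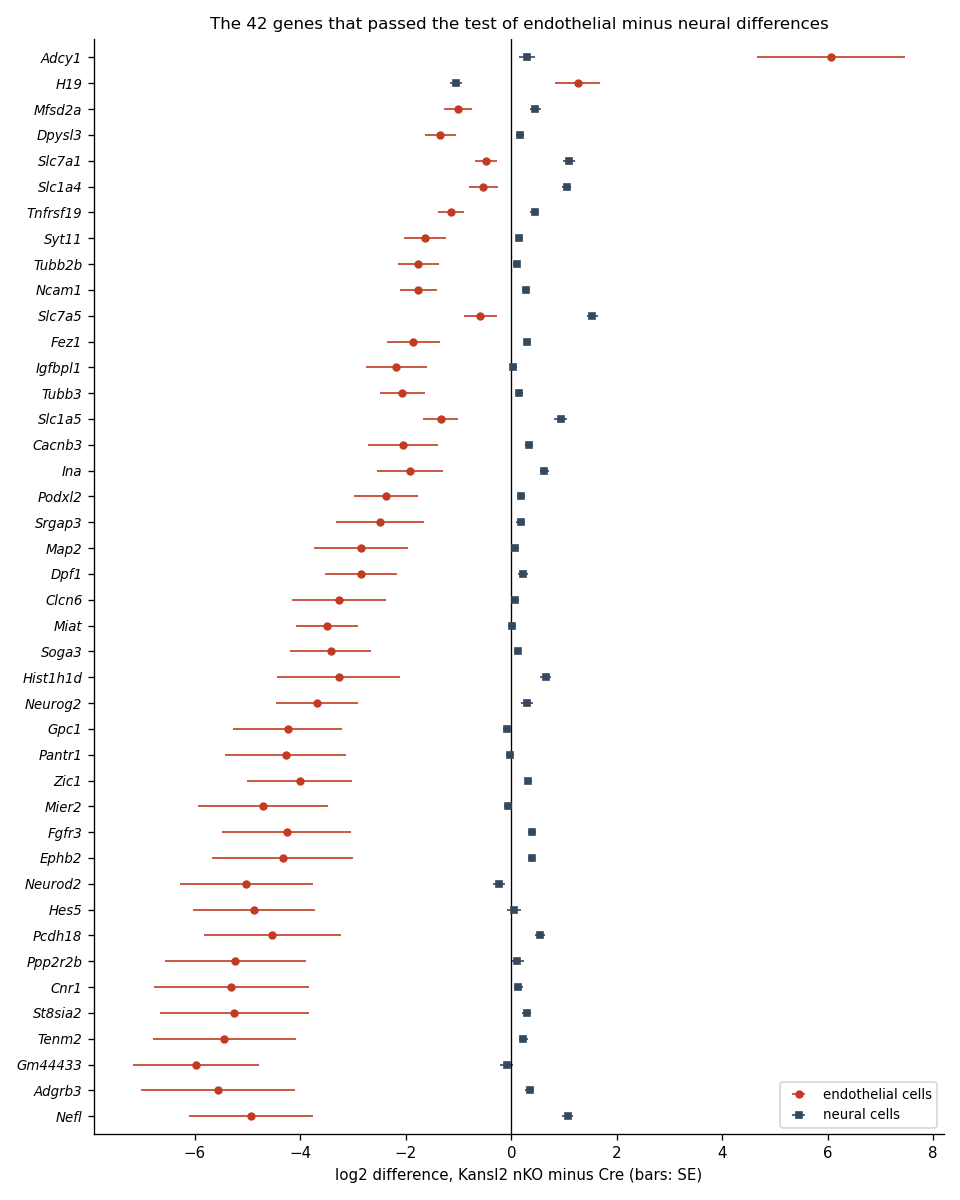
Log2 differences of Kansl2 nKO minus Cre (± SE) in endothelial cells (red circles) and in neural cells (dark squares) for the 42 genes that passed the test of endothelial minus neural differences. In all but H19 and Adcy1 the endothelial point lies left of the neural one, as for Slc7a5 (-0.59 and 1.54) and Miat (-3.49 and 0.01).

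Sorted pericytes, compared in 3 Kansl2 nKO and 4 Cre libraries that share none with the endothelial table, had 137 genes higher and 181 lower of 14402 (limma, adjusted p under 0.05). Several inflammatory genes described above passed there. Icam1 rose by 3.09 ± 0.39 on the log2 scale (limma, adjusted p = 8.76e-04), Relb by 2.80 ± 0.40 (adjusted p = 0.00165), Ifitm3 by 1.27 ± 0.19 (adjusted p = 0.00216), Bcl3 by 4.37 ± 0.94 (adjusted p = 0.0270) and Ier3 by 1.09 ± 0.23 (adjusted p = 0.0235). The corresponding endothelial differences were 1.04, 1.22, 1.48, 5.47 and 1.04, and the difference between these cell types was not tested. Irf1 was at 1.22 ± 0.36 in pericytes (limma, adjusted p = 0.0912). Of the lower genes, Cd248, Rgs5 and Kcnj8 were at 0.32 ± 0.19, -0.08 ± 0.10 and -0.36 ± 0.12 in pericytes, where none passed.

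Endothelial cells labelled Kansl3 nKO (3 libraries) and Mof nKO (4 libraries) were deposited against the same 4 Cre libraries, whose reads were identical in the 3 tables. One of the 4 Mof nKO columns, M436, bears a number that no sample title has (the titles list M432), and it was used as a replicate of its group. Since the Cre libraries are shared, what the comparisons share was not measured. With limma, 0 of 16466 genes passed an adjusted p of 0.05 for Kansl3 nKO and 0 of 17152 for Mof nKO. Irf1 had log2 differences of 2.81 ± 0.48 for Kansl2 nKO, 2.92 ± 0.42 for Kansl3 nKO and 2.47 ± 0.45 for Mof nKO. For Bcl3 they were 5.47 ± 1.29, 5.56 ± 1.30 and 4.76 ± 1.15, and for Icam1 1.04 ± 0.27, 1.46 ± 0.23 and 1.31 ± 0.21. Rock2 had 1.40 ± 0.25, 0.21 ± 0.27 and 1.05 ± 0.21, Cd248 had -4.16 ± 0.69, -1.47 ± 0.36 and -1.22 ± 0.45, and Mfsd2a had -1.01 ± 0.26, -0.31 ± 0.21 and -0.32 ± 0.21. Pericyte markers summed to 56.1 to 195 CPM in Kansl2 nKO libraries, 189 to 251 in Kansl3 nKO libraries and 118.5 to 380 in Mof nKO libraries. In Cre libraries they summed to 344.6 to 426, so every Kansl3 nKO library also lay below every Cre library. Neural markers, Nes included, summed to 265 to 610, 224 to 321 and 290 to 498.4 CPM, against 498.1 to 631 in Cre libraries. Their median log2 differences were -2.70, -2.36 and -1.36, so low neural markers were not particular to Kansl2 nKO. Set directly against Kansl3 nKO in 1 fit, Kansl2 nKO endothelial cells had 0 of 16605 genes (0.0%) past an adjusted p of 0.05 with limma, and 455 (2.74%) had an unadjusted p under 0.05. That test does not show that the genotypes act alike.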

How the data were processed

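RNA of sorted endothelial cells was measured in 3 Kansl2 nKO and 4 Cre libraries, grouped by their genotype labels. The deposited signal values are gene counts that the authors divided by one size factor per library; the submitters' processing notes name STAR, featureCounts, DESeq2 and the build mm10, with versions not given in the sources used here. Multiplying by the size factor returned whole reads for 100% of values within 0.01, and counts per 1000000 reads (CPM) were computed from these reads. The authors' deposited table of log2 fold changes and adjusted p-values has the columns of a DESeq2 result, per the file headers. Each deposited table was normalized on its own, so tests were run within a table, after joint scaling of the recovered reads (against Kansl3 nKO), or on a difference of differences (against neural cells, with a weight for each cell type).

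The test was limma (version 3.58.1, in R 4.3.3) with a mean-variance trend on log2(value + 1). Genes entered it with a mean value of 10 or more over the 7 libraries, with Benjamini-Hochberg adjustment over all genes tested and a threshold of 0.05. It was run on simulated counts whose spread between replicates was set and not fitted to these libraries, so that run does not show its power here. Alternatives were edgeR 4.0.16 and DESeq2 1.42.0 on the recovered reads, weights per library, TMM scaling, pseudocounts of 0.5 and 4, other filters and leaving out each library. Sums of marker genes were compared with exact permutation tests. In each direction, the 12 genes of smallest unadjusted p with a mean of at least 50 and groups that do not overlap were named, without sex-linked genes and predicted genes; then up to 4 members per list were named by p. Members of lists described beyond these were chosen after their values were seen. The comparison, the gene lists and the rule were chosen with earlier results of these data known. For the lists, leaving out each library and TMM scaling were chosen after seeing the data. Depth per library, 10048082 to 25260285 reads, limits low genes most; floors cover counting error only. Whether the counting used strand is not given in the sources used here.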

Additional observations from a re-analysis of the deposited data

Results flagged for a closer look

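In a group of 4 libraries, a library was singled out when its gap to the nearest other library took up more of the group's range than Dixon's 95% critical value, which chance alone does in about 1 of 20 groups; 10 of 90 Cre values tested were. Cre130 was far above the other Cre libraries for Miat (0.890 of the range), Csdc2 (0.862) and Col3a1 (0.841) and for the percent of mitochondrial reads (0.838). It was far below them for Slc22a8 (0.922) and for the sum of barrier transporters (0.967). Without Cre130 the log2 differences were -3.14 for Miat, -3.24 for Csdc2, -1.24 for Col3a1 and -1.38 for Slc22a8. Cre91 was far above the others for Icam1 (0.855). Cre89 held all of the Cre values above 0 for Rsad2 (1) and lay below the others in the sum of neural markers (0.900). Cre94 had the most reads (0.841).

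The test of endothelial minus neural differences passed for 15 genes named in the text, none of which passed in endothelial cells alone. The difference was negative for Hes5 (-4.93), Neurog2 (-3.99), Miat (-3.50), Tubb3 (-2.22), Ncam1 (-2.04), Tubb2b (-1.86), Tnfrsf19 (-1.58) and Dpysl3 (-1.51). It was also negative for Slc1a5 (-2.28), Slc7a5 (-2.12), Slc7a1 (-1.58), Slc1a4 (-1.58) and Mfsd2a (-1.46), and positive for H19 (2.30) and Adcy1 (5.76).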

How the results depend on the processing

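No gene passed in Kansl2 nKO against Cre endothelial cells with either other pseudocount, either other filter, TMM scaling, edgeR or without any 1 library; 54 passed with weights per library and 159 with DESeq2. Of the 54, 36 (66.7%) were among the 159, of which they are 22.6%. Kansl2 nKO against Kansl3 nKO stayed at 0 throughout. The 42 endothelial minus neural calls were 42 with a pseudocount of 4, 41 with a mean of at least 50, and 17 to 137 without 1 library. Of 1178 values of 79 named genes, 1107 kept their sign and side of the threshold, 58 passed the threshold (28 with weights per library, 30 with DESeq2) and 13 in 5 genes turned sign. Kansl2 was at 0.026 with weights per library and between -0.31 and 0.091 without 1 library. Kat8 lay between -0.013 and 0.37 without 1 library, and Kansl3 between -0.42 and 0.50. Kansl3 was also at 0.0052 with TMM, 0.66 with weights, 0.10 with edgeR and 0.071 with DESeq2. Irf7 was at 0.016 with weights, and Slc6a6 between -0.055 and 0.35 without 1 library. Of 264 list medians, 238 stayed within the spread between libraries and 26 did not; the cause was not tested. No paired analysis was possible because the numbers in the names of the Kansl2 nKO and Cre libraries do not match.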

Other observations

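Single members of other lists had groups that differed at an unadjusted p under 0.05 with limma, while their adjusted p-values were above 0.8. In the basement membrane list, Hspg2, the proteoglycan perlecan, had a log2 difference of 0.66 ± 0.27 and Itga1, a collagen-binding integrin, one of -0.70 ± 0.29. Among genes that respond to blood flow, Procr, the receptor for protein C, was at 0.66 ± 0.29 and Edn1, the vasoconstrictor endothelin, at -0.80 ± 0.35. Among fatty acid handling genes, Fabp5, an intracellular carrier, was at -1.27 ± 0.48 and Angptl4, an inhibitor of lipoprotein lipase, at -0.63 ± 0.27. In the hypoxia list, Ndrg1 had 127, 151 and 264 in the Kansl2 nKO libraries, against 66.1, 0.976, 10.9 and 19.1 in the Cre libraries. Bnip3, a mitophagy receptor, had 112, 37.9 and 73.0, against 139, 187, 309 and 193.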
